A study of Mus musculus with 24 samples.

Results

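The 10 Paneth cell products described here were 10 of the 25410 gene symbols measured in the duodenum of male Cyp27b1-/- mice. They were taken by symbol: the alpha-defensins Defa5, Defa17, Defa20, Defa21, Defa22 and Defa24, the lysozyme Lyz1, the intelectin Itln1, the angiogenin Ang4 and the matrix metalloproteinase Mmp7. Each symbol had 1 row in the files, and all 10 were among the 20006 genes that passed the filter on low values. Expression was measured by RNA sequencing in 24 libraries, 6 in each of 4 groups. Mice of all groups carried the Cyp27b1 deletion, were weaned at 3 weeks onto a vitamin D-deficient diet and were killed at 8 weeks of age. The rescue diet held 2% calcium, 1.25% phosphorus and 20% lactose, and the normal diet 0.47% calcium and 0.3% phosphorus. On the rescue diet, 1 group had been injected intraperitoneally with 1,25-dihydroxyvitamin D3 (1,25D) at 2 ng per g body weight, 6 h before the duodenum was taken, and 1 group with vehicle. On the normal diet there was likewise a 1,25D group and a vehicle group. The design text gives 12 mice per diet and 8 mice injected per group, does not say how these became 6 libraries in each of 4 groups, and ties no library to an animal, so the p-values below measure the spread between libraries.

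Paneth cells sit at the base of the crypts of the small intestine, between the Lgr5-positive stem cells, and release granules of antimicrobial proteins into the crypt lumen. Alpha-defensins are short cationic peptides held by 3 disulphide bonds between 6 cysteines. In the mouse they are made as inactive precursors that Mmp7 cuts in the granule. Lyz1 is the lysozyme of mouse Paneth cells and cleaves bacterial peptidoglycan, whereas its neighbour Lyz2 is the form of macrophages. Itln1 is a lectin that binds sugars of microbial surfaces, and is also made by goblet cells. Ang4 is a secreted ribonuclease-family protein with antibacterial activity in the mouse. Paneth cell genes, alpha-defensins and Mmp7 among them, are known to depend on Wnt signalling through beta-catenin and TCF factors. Cyp27b1 is the enzyme that makes 1,25D from its precursor, and it is the gene deleted in all groups.

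Cyp27b1 was at most 0.452 RPKM (reads scaled by transcript length and by the mapped reads of the library) in every library, with no wild-type group to set it against. Cyp24a1, the enzyme that degrades 1,25D and its best known target, ranged between 92.1 and 962 RPKM after 1,25D on the rescue diet, against 0.016 to 0.712 after vehicle. On the normal diet it ranged between 509 and 1036 RPKM after 1,25D, against 0.131 to 4.03 after vehicle. Relative depth, recovered from the steps of low values, differed by at most 2.77 times between libraries, and its correlation with the mean log2 level of the 10 genes was 0.05 (Pearson's r, 24 libraries). Normal-diet vehicle library 6 stood apart, with 16.8% of its summed RPKM in exocrine pancreas genes. It was also the lowest library for 6 of the 10 genes.

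The 6 defensins all lie on chromosome 8, and their coding sequences are close to one another. The last 105 coding bases of each, which encode the cysteine-rich end of the peptide, are shown because identity was lower there than over the whole coding sequence in all 15 pairs. Cysteine codons are in capitals. They come from GENCODE M21 transcripts (mouse build GRCm38), and are written 5′ to 3′.
Defa24: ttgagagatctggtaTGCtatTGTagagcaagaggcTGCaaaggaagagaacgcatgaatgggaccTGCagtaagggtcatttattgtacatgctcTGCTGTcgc
Defa17: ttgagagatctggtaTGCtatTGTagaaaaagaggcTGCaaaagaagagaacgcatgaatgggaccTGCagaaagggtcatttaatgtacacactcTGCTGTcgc
Defa5: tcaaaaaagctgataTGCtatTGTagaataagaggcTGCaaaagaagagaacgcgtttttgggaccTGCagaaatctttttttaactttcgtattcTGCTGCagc
Defa20: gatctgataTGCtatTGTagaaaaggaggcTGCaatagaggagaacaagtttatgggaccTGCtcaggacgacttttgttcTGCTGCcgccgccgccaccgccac
Defa21: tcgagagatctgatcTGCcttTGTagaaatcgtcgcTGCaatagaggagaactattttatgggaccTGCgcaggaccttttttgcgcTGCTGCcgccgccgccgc
Defa22: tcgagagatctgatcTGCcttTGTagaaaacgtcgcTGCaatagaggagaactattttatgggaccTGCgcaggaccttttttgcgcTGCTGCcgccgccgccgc
Each stretch held 6 cysteine codons. Over the whole coding sequence, Defa21 and Defa22 were 99.3% identical, Defa24 and Defa17 95.7%, and Defa20 and Defa22 90.5%. The other pairs were 80.6% to 89.8% identical. Of all 50-base stretches of the transcript, all in Defa20, 99.7% in Defa5, 92.0% in Defa17, 74.9% in Defa22, 72.9% in Defa21 and 28.1% in Defa24 also occurred in another annotated gene, most of them other alpha-defensins. How the authors' counting divided such reads is not given in the sources used here, so the split between the defensin rows is uncertain. The non-defensin members shared less: 16.1% of Lyz1 stretches occurred in Lyz2, 4.7% of Ang4 stretches in Ang2 or Ang5, 1.01% of Itln1 stretches in Gm9765, and 0.0% of Mmp7 stretches elsewhere.

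The 250 bases before the start of 3 of these defensins are shown, because the others had no entry in the RefSeq promoter table (GRCm38.p6). It matched 7 of the 10 symbols, and not Defa5, Defa17 or Defa24. The sequences of Defa21 and Defa22 were identical over these bases, and that of Defa20 differed from both at 5 positions. Capitals mark ATCAAAG, a match to the core letters bound by TCF factors.
Defa21 (plus strand, chr8:21025295-21025544) and Defa22 (plus strand, chr8:21162027-21162276): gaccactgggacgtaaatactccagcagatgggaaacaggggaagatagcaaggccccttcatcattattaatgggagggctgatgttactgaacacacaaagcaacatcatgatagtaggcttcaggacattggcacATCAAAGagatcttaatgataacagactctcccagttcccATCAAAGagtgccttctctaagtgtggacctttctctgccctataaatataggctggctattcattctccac
Defa20 (plus strand, chr8:21509008-21509257): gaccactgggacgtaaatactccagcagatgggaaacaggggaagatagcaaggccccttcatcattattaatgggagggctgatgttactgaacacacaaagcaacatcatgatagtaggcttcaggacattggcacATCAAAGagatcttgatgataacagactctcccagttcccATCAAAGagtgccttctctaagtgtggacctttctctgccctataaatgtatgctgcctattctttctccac
ATCAAAG, searched on both strands, occurred at 112 to 106 and again at 72 to 66 bases before the start in all 3. Of the 32851 promoters in the table, 3.21% held it at least once and 0.0822% held it 2 or more times. A TATAAA match lay 31 to 26 bases before the start in the same 3 genes, and did not overlap it. TATAAA occurred in 12.4% of all promoters. Of the 2 promoters listed for Mmp7, 1 held ATCAAAG, 247 to 241 bases before the start. ATCAAAG was not among these letters for Lyz1, Ang4 or Itln1. Compared position by position without gaps, their upstream bases were 20.4% to 28.8% identical to those of the 3 defensins and to each other. This count does not align the sequences, so it gives no measure of likeness after a shift. A pair of AGGTCA, or a pair of GGTTCA, in the same direction with any 3 bases between them, as in vitamin D receptor elements, occurred in no promoter of the 7 genes on either strand. Each such pair occurred in 0.00609% of all promoters. These matches describe the letters only.

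By mean level over the 24 libraries the order was Defa24, Lyz1, Defa17, Itln1, Defa5, Ang4, Defa20, Mmp7, Defa21 and Defa22. Of these, 3 were among the 14 most abundant symbols of the tissue: Defa24 was at rank 7 with 3897 ± 1496 RPKM (SD, n = 24), Lyz1 was at rank 12 with 3141 ± 1100 RPKM, and Defa17 at rank 14 with 2824 ± 1115 RPKM. Itln1 averaged 1242 ± 429 RPKM. Defa5 averaged 192 ± 115 RPKM, Ang4 160.5 ± 70.9 RPKM and Defa20 138 ± 103 RPKM. Mmp7, the processing enzyme, averaged 66.7 ± 25.6 RPKM, and the least abundant pair were Defa21 at 53.4 ± 42.4 RPKM and Defa22 at 43.6 ± 35.1 RPKM. Defa24 was above Lyz1 in 24 of 24 libraries, Defa17 above Itln1 in 24 and Itln1 above Defa5 in 24. Other neighbours crossed in some libraries: Lyz1 was above Defa17 in 20 of 24, Defa5 above Ang4 in 19, Ang4 above Defa20 in 19, Defa20 above Mmp7 in 23, Mmp7 above Defa21 in 22 and Defa21 above Defa22 in 22.

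Together the 10 genes took 0.956% to 3.79% of a library's summed RPKM, and of their own sum Defa24 made up 33.2%, Lyz1 26.9%, Defa17 23.9% and Itln1 10.7% on average. The other 6 made up 0.349% (Defa22) to 1.57% (Defa5) each. The summed level was 8826, 9536 and 12714 RPKM (lowest, median and highest of 6 libraries) after 1,25D on the rescue diet, against 9262, 14992 and 20705 RPKM after vehicle. After 1,25D on the normal diet it was 5933, 7815 and 13507 RPKM, against 5315, 13227 and 22219 RPKM after vehicle. Both 1,25D medians were thus below their vehicle medians, and the ranges overlapped on both diets. In whole duodenum, fewer Paneth cells and less RNA per Paneth cell cannot be told apart, nor can either from more RNA of other cells, since RPKM is relative to the library. The highest and the lowest of the 24 libraries were both normal-diet vehicle libraries, numbers 1 and 6. The highest library was 4.18 times the lowest in that group and 1.44 times in the rescue 1,25D group.

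**Figure D1:**
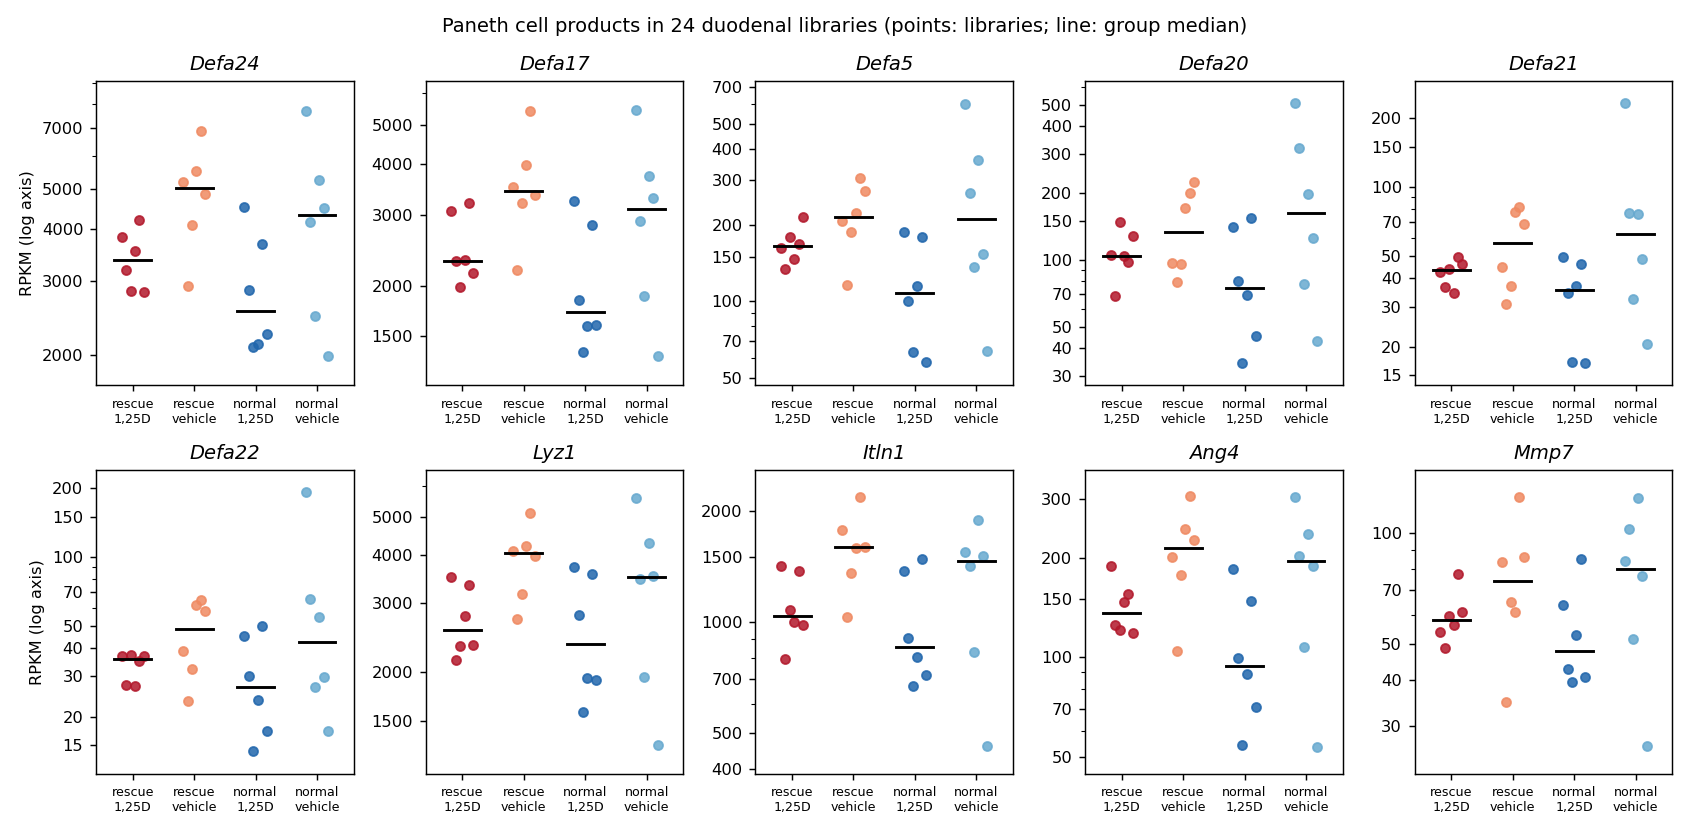
RPKM of each gene (log axis) in the 24 libraries, by diet and injection; points are libraries and black lines group medians. In every panel the 1,25D medians lie below the vehicle medians of the same diet, the groups overlap, and the normal-diet vehicle libraries spread widest.

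The abundant defensins, Defa24 and Defa17, were lower in the 1,25D medians of both diets. Defa24 had 2823.5, 3368.5 and 4202 RPKM (lowest, median, highest) after 1,25D on the rescue diet, against 2921, 5031 and 6897 RPKM after vehicle. Defa24 on the normal diet had 2080.6, 2548.5 and 4516 RPKM after 1,25D, against 1989, 4329.9 and 7717 RPKM after vehicle. In each diet the highest vehicle library was above every 1,25D library, and the lowest vehicle library lay within or below the 1,25D range. Defa17 had 1987, 2309 and 3201 RPKM after 1,25D on the rescue diet, against 2187, 3436 and 5427 RPKM after vehicle. Defa17 on the normal diet had 1374, 1722.5 and 3235 RPKM after 1,25D, against 1341, 3100.2 and 5444.5 RPKM after vehicle. These 2 genes kept close to each other across libraries, with a Pearson's r of 0.99.

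The 4 less abundant defensins had a wider range on the normal diet. Defa5 had 134.0, 165 and 215 RPKM after 1,25D on the rescue diet, against 117, 215 and 308 RPKM after vehicle. Defa5 on the normal diet had 57.9, 108 and 188 RPKM after 1,25D, against 63.9, 211 and 599 RPKM after vehicle. Of the 6 normal-diet vehicle libraries, 3 (numbers 1, 2 and 4) were above every 1,25D library, and library 6 was near the bottom of the 1,25D range. Defa20 had 69.0, 104 and 148 RPKM after 1,25D on the rescue diet, against 79.5, 134 and 224 RPKM after vehicle. Defa20 on the normal diet had 34.4, 75.1 and 155 RPKM after 1,25D, against 42.9, 162 and 509 RPKM after vehicle. The same 3 vehicle libraries were again above every 1,25D library of the normal diet. Defa21 had 34.4, 43.2 and 49.4 RPKM after 1,25D on the rescue diet, against 30.7, 56.9 and 82.1 RPKM after vehicle. Defa21 on the normal diet had 17.1, 35.5 and 49.4 RPKM after 1,25D, against 20.6, 62.5 and 232 RPKM after vehicle. The 232 RPKM of Defa21 came from normal-diet vehicle library 1, and the next library of that group was at 77.3 RPKM. Defa22 had 27.2, 35.9 and 37.1 RPKM after 1,25D on the rescue diet, against 23.3, 48.5 and 65.1 RPKM after vehicle. Defa22 on the normal diet had 14.1, 26.9 and 49.8 RPKM after 1,25D, against 17.2, 42.4 and 192 RPKM after vehicle. Its groups overlapped, with vehicle library 1 alone far above the others.

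Among the other antimicrobial products, Lyz1 had 2147, 2565.5 and 3504 RPKM after 1,25D on the rescue diet, against 2729.7, 4030.7 and 5119.9 RPKM after vehicle. Lyz1 on the normal diet had 1582, 2365 and 3710.4 RPKM after 1,25D, against 1298, 3501.6 and 5586 RPKM after vehicle. On the rescue diet 4 of 6 vehicle libraries were above every 1,25D library; on the normal diet 2 of 6 were. Itln1 had 796, 1039 and 1416 RPKM after 1,25D on the rescue diet, against 1034.5, 1595 and 2175 RPKM after vehicle. Itln1 on the normal diet had 673, 854 and 1480.5 RPKM after 1,25D, against 462, 1465 and 1884 RPKM after vehicle. The groups of Itln1 overlapped on both diets. Ang4 had 119, 136 and 188 RPKM after 1,25D on the rescue diet, against 105, 213 and 307 RPKM after vehicle. Ang4 on the normal diet had 54.2, 94.2 and 184 RPKM after 1,25D, against 53.4, 196 and 305 RPKM after vehicle. For Ang4, 4 of the 6 vehicle libraries on each diet were above every 1,25D library of that diet. Mmp7, which activates the defensins, had 48.7, 58.0 and 77.3 RPKM after 1,25D on the rescue diet, against 34.8, 74.0 and 124.5 RPKM after vehicle. Mmp7 on the normal diet had 39.6, 47.9 and 84.7 RPKM after 1,25D, against 26.5, 80.0 and 124 RPKM after vehicle. Its vehicle ranges contained its 1,25D ranges on both diets.

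On the normal diet, none of the 10 genes passed the test for 1,25D against vehicle, where 1.84% of all genes tested did (limma, Benjamini-Hochberg adjusted p under 0.05; 357 genes higher and 11 lower). All 10 fitted differences were below 0, as were those of 41.2% of all genes. Their median log2 fold change of RPKM + 0.5 was -0.59, beside 0.05 over all genes tested. The differences were largest in size for the 4 less abundant defensins. Defa20 was at -1.02 (SE 0.45, adjusted p = 0.341), which is 2.03-fold lower. Defa5 had -0.96 (SE 0.38, adjusted p = 0.261) and Defa21 -0.94 (SE 0.40, adjusted p = 0.295), and these 3 had unadjusted p-values under 0.05, as did 12.0% of all genes. Defa22 was at -0.76, Ang4 at -0.68, Defa17 at -0.51, Defa24 at -0.50 and Mmp7 at -0.41. Lyz1 at -0.30 (SE 0.32) and Itln1 at -0.29 (SE 0.29) differed by about their standard errors. All these standard errors come from 1 model of all 4 groups, so the narrower spread on the rescue diet enters them. For Defa5 the SD of log2 levels was 0.718 after 1,25D and 1.14 after vehicle, against 0.235 and 0.489 on the rescue diet. With only the normal-diet groups in the model, no member passed (lowest adjusted p = 0.411). No gene of the 10 had 6 libraries apart from the other 6, and 2.22% of all genes did. A pair of vehicle libraries moved these values in opposite directions. Without vehicle library 6, the library rich in pancreas genes, Defa5 was at -1.30 with an adjusted p of 0.0495 and was the 1 member called. Without vehicle library 1 it was at -0.65 with an adjusted p of 0.526. Without both, the median of the 10 was -0.64 and none was called. The order by size also moved. Without library 1 Defa22 was at -0.35, smaller in size than Ang4 (-0.49) and Mmp7 (-0.36). Without both it was at -0.60, beside -0.83 for Ang4 and -0.69 for Mmp7. Without library 6 it was at -1.04, beside -0.99 for Ang4 and -0.69 for Mmp7. With the mean level of 15 enterocyte markers as a covariate, a fit added after the data were seen, the median was -0.0 and 5 members were no longer below 0. That mean log2 level was itself 7.60 to 8.22 after 1,25D and 5.91 to 7.20 after vehicle on this diet. The groups did not overlap in it, so this fit cannot separate the enterocyte level from the injection.

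On the rescue diet, again none of the 10 genes passed, and 0.145% of all genes did (28 higher and 1 lower). All 10 fitted differences were below 0, beside 39.1% of all genes. The median was -0.44, against 0.06 over all genes tested. The order of the genes was another one: Itln1 was at -0.51 (SE 0.29, adjusted p = 0.878), and Lyz1, Defa24, Defa17 and Ang4 were at -0.50 each. Defa22 was at -0.39, Defa5, Defa20 and Defa21 at -0.34 each, and Mmp7 at -0.26. None had an unadjusted p under 0.05, which 4.83% of all genes had. As on the normal diet, the standard errors come from the model of all 4 groups, so the wider spread of that diet enters them. For Lyz1 the SD of log2 levels was 0.295 after 1,25D and 0.321 after vehicle here, against 0.518 and 0.777 on the normal diet. With only the rescue groups in the model, no member passed (lowest adjusted p = 0.868). No member's libraries were apart, and those of 0.365% of all genes were.

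Over both diets together, the standard errors were between 0.21 and 0.32. No member passed, beside 1.28% of all genes. The 10 genes had a median of -0.54, beside 0.07 over all genes, and all 10 were below 0, beside 34.2% of all genes. Ang4 had the lowest adjusted p, at 0.355, with a log2 fold change of -0.59 (SE 0.24), which is 1.51-fold lower. In all, 6 members had unadjusted p-values under 0.05 (Defa24, Defa17, Defa5, Defa20, Defa21 and Ang4), as did 9.78% of all genes. The interval of 2 standard errors ran between -1.32 and -0.04 for Defa20, and between -0.75 and 0.08 for Mmp7. Since the 10 genes varied together, their shared direction is not 10 separate observations.

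No member passed the test of the difference of the 1,25D effect between the diets, which 0.005% of all genes passed, and none had an unadjusted p under 0.05, which 6.85% had. The rescue effect minus the normal effect was 0.68 (SE 0.64) on the log2 scale for Defa20, 0.62 (SE 0.54) for Defa5, 0.60 (SE 0.56) for Defa21 and 0.37 (SE 0.57) for Defa22. For Defa24 and Defa17 it was 0.00 (SE 0.45) and 0.01 (SE 0.44). Lyz1 and Itln1 were at -0.20 (SE 0.45) and -0.22 (SE 0.41), the 2 members below 0, as were 48.3% of all genes. The interval of 2 standard errors spanned -0.60 to 1.97 for Defa20 and -0.90 to 0.91 for Defa24. With the enterocyte level as a covariate, all 10 members were below 0 in this comparison, with a median of -0.62 against 0.16 without it, and none passed. This fit was added after the data were seen. The enterocyte level did not overlap between the injections on the normal diet, so the fit cannot separate that level from the injection there.

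**Figure D2:**
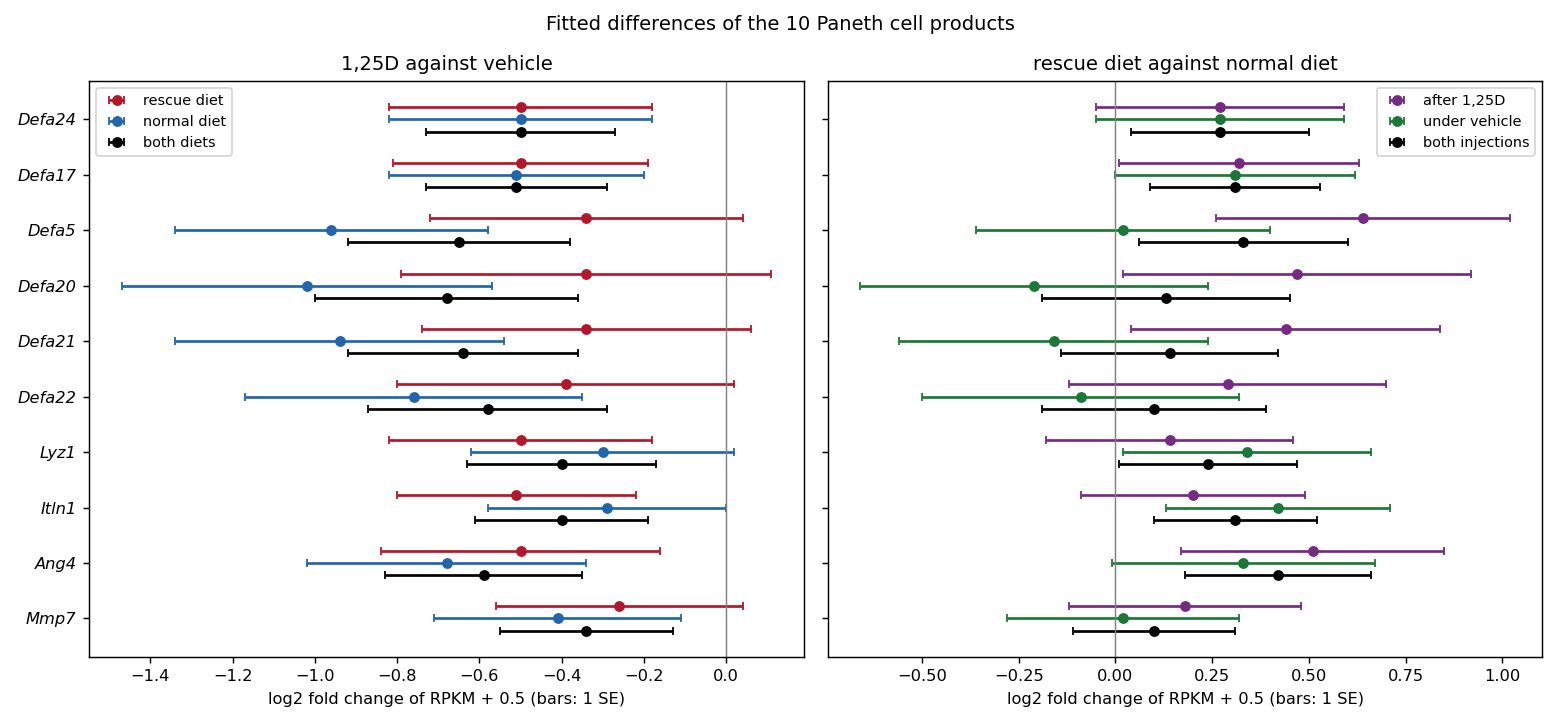
Fitted log2 fold change of RPKM + 0.5 for each gene with 1 standard error, for 1,25D against vehicle (left; rescue diet, normal diet, both) and for the rescue diet against the normal diet (right; after 1,25D, under vehicle, both). All values on the left are below 0, and Defa5, Defa20 and Defa21 lie near -1 on the normal diet and at -0.34 on the rescue diet.

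The diets themselves were compared within each injection. After 1,25D, all 10 genes were above 0 for the rescue diet against the normal diet, with a median log2 fold change of 0.30 beside 0.12 over all genes, and 29.3% of all genes were below 0. None passed, and 0.01% of all genes did. With the enterocyte level as a covariate, a fit added after the data were seen, 8 of the 10 were below 0 and the median was -0.16. After 1,25D that mean log2 level was 5.84 to 7.83 on the rescue diet and 7.60 to 8.22 on the normal diet. The overlap was small, so this fit can hardly separate the enterocyte level from the diet. Defa5 had the largest value, 0.64 (SE 0.38, adjusted p = 0.692), with a mean of 167 ± 28.1 RPKM on the rescue diet and 117 ± 55.9 RPKM on the normal diet (SD, n = 6 each). Ang4 was at 0.51 (SE 0.34) and Lyz1 at 0.14 (SE 0.32). Under vehicle, 7 genes were above 0 and 3 below, with a median of 0.15 beside 0.10 over all genes, 31.1% of all genes were below 0, and 0.0% of all genes passed in this comparison. Itln1 was at 0.42 (SE 0.29), with 1589 ± 385 RPKM on the rescue diet and 1276 ± 526 RPKM on the normal diet. Defa20 was at -0.21 (SE 0.45), Defa21 at -0.16 and Defa22 at -0.09. Over both injections, where 23.3% of all genes were below 0, the 10 values lay between 0.10 (Defa22) and 0.42 (Ang4), and again 0.0% of all genes passed; none of the 10 had an unadjusted p under 0.05, which 9.5% of all genes had. After 1,25D and under vehicle, 8.38% and 7.18% of all genes had unadjusted p-values under 0.05, and none of the 10 did. The rescue 1,25D libraries were also the most alike: the SD of log2 levels ran between 0.198 (Defa21) and 0.373 (Defa20) there, against 0.429 to 0.856 in the normal 1,25D libraries. Under vehicle it ran between 0.321 and 0.633 on the rescue diet, against 0.719 to 1.31 on the normal diet. This difference in spread was not tested.

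**Figure D3:**
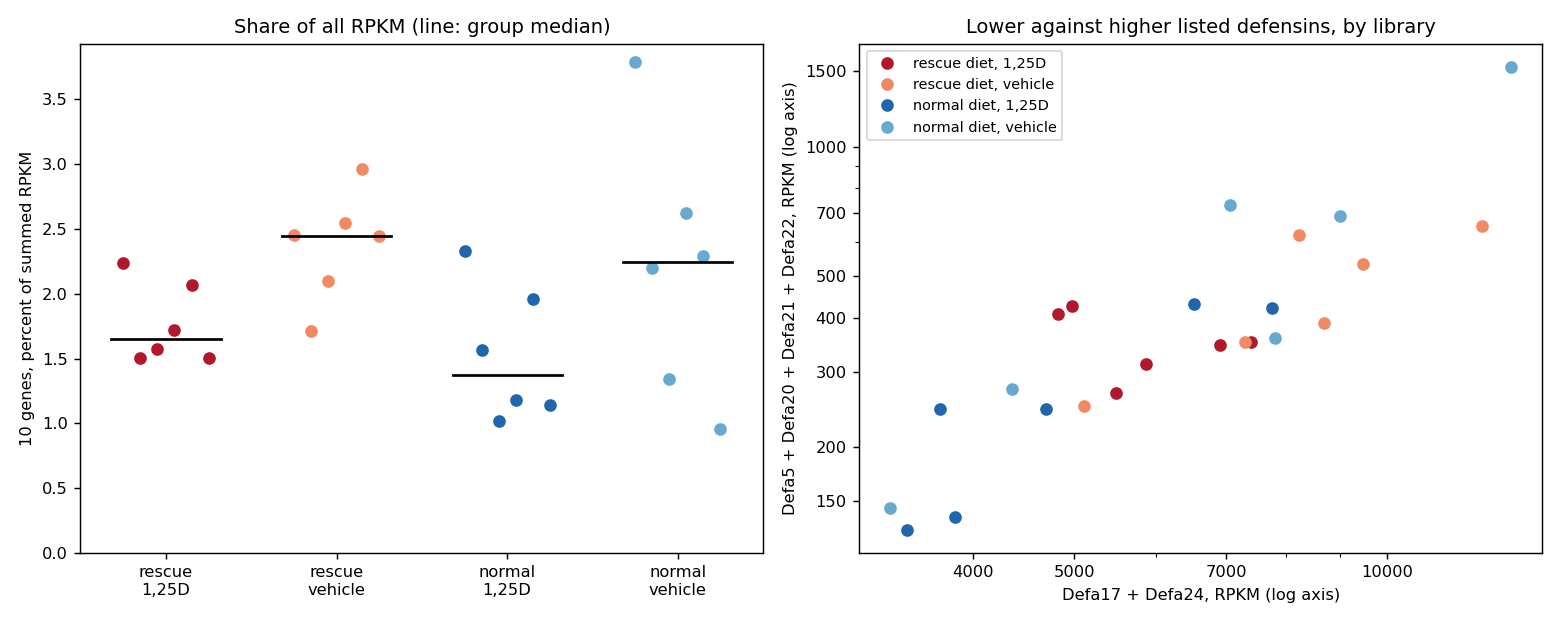
Left, the 10 genes as a percentage of each library's summed RPKM by group, with group medians as lines. Right, the summed RPKM of Defa5, Defa20, Defa21 and Defa22 against that of Defa17 and Defa24 in each library (log axes); normal-diet vehicle library 1 is at the top right with 1532 and 13161 RPKM.

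The 10 genes varied together from library to library. Over the 45 pairs, Pearson's r of log2 levels over 24 libraries lay between 0.74 (Defa22 with Mmp7) and 0.99 (Defa24 with Defa17). With group means removed it lay between 0.70 and 0.98, so the likeness was present within groups. By values that were looked at first, the genes fell into a set of Lyz1, Defa24, Defa17 and Ang4, with r between 0.96 and 0.99, and a set of Defa5, Defa20, Defa21 and Defa22, with r between 0.94 and 0.98. Between these sets r was 0.81 to 0.91. Itln1 had r of 0.91 (Defa24) to 0.96 (Lyz1) with the first set and 0.75 (Defa22) to 0.83 (Defa5) with the second. Mmp7 had r of 0.80 to 0.84 with the first set and 0.74 to 0.84 with the second. Ang4 and Lyz1, on chromosomes 14 and 10, were thus in the first set with Defa24 and Defa17 on chromosome 8. The pairs share libraries and depth, and defensin pairs can share reads. The second set had the wider range, with its highest library 10.3 times (Defa5) to 14.8 times (Defa20) the lowest. For the other 6 genes this ratio was 3.88 (Defa24) to 5.75 (Ang4). The share of the 4 less abundant genes in the sum of the 6 defensins thus varied, between 3.47% in normal-diet 1,25D library 6 and 10.4% in normal-diet vehicle library 1. By group its median was 4.91% after 1,25D and 4.86% after vehicle on the rescue diet, and 5.07% after 1,25D and 6.53% after vehicle on the normal diet.

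**Figure D4:**
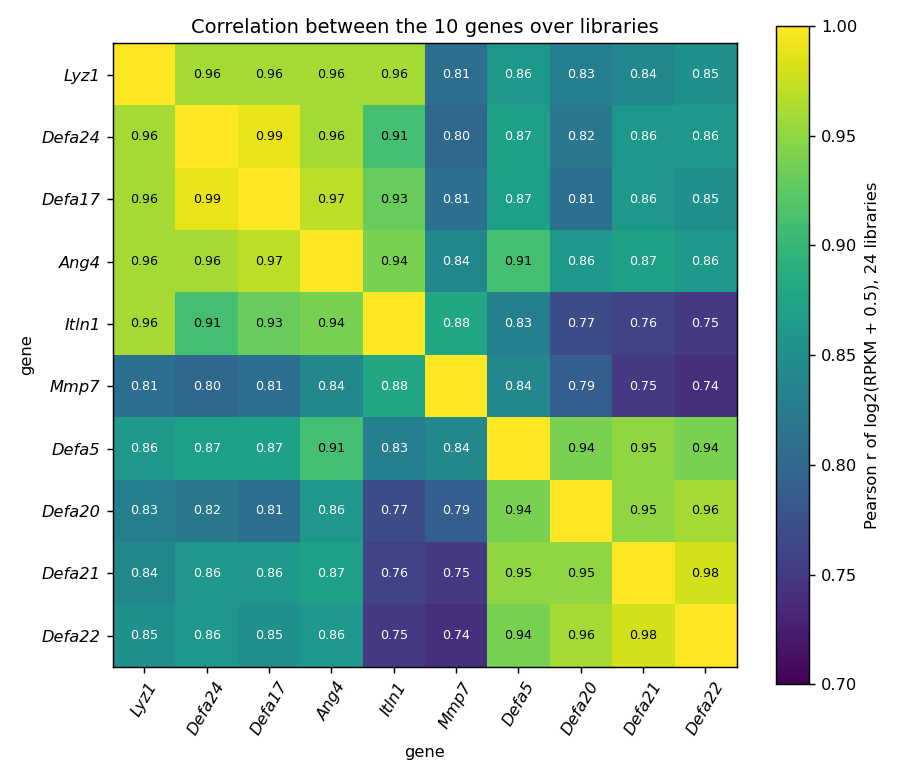
Pearson's r of log2(RPKM + 0.5) between each pair of the 10 genes over 24 libraries, as colour and number. The 4 defensins Defa5, Defa20, Defa21 and Defa22 form the block at the lower right, and Lyz1, Defa24, Defa17 and Ang4 the block at the upper left.

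The genes whose pattern over the 24 libraries was most like the mean standardized level of the 10 were other alpha-defensins. By Pearson's r of log2 levels, the nearest included Gm14850 (Defa37 in RefSeq, r = 0.967), Defa3 (0.958), Gm7849 (Defa42, 0.955), Gm10104 (Defa35, 0.954), Gm15315 (Defa34, 0.948), Gm7861 (Defa43, 0.947), Defa-rs7 (Defa31, 0.942), Defa23 (0.942) and Gm15308 (Defa32, 0.928). Defa3 at 2867 RPKM and Defa23 at 2178 RPKM stood on either side of Defa17 in mean level, above Itln1 and below Lyz1. Among genes without a defensin name, looked at afterwards, the nearest were AY761184 (0.911), 2700049A03Rik (0.873), Cenpa (0.859), Hmmr (0.854) and Gas2l3 (0.842). AY761184 is itself on the list of other genes linked to Paneth cells that is described below. Cenpa, a centromere histone, and Hmmr, a spindle protein, are known from dividing cells.

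The remaining alpha-defensins had the same direction as the members in the contrast of 1,25D with vehicle. Of 9 others carried by symbol, 7 were tested, none passed on either diet, and all 7 were below 0, with medians of -0.55 on the rescue diet and -0.53 on the normal diet, beside 0.06 and 0.05 over all genes. Of 12 found through RefSeq synonyms, none passed and all 12 were below 0, with medians of -0.39 on the rescue diet and -0.74 on the normal diet. Their mean log2 levels followed those of the members with r of 0.96 and 0.98 over 24 libraries. For Defa3 the difference over both diets was -0.50 on the log2 scale (SE 0.22, adjusted p = 0.426). These rows can share reads with the members and with each other.

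A mixed list of other genes linked to Paneth cells did not share one pattern. Not all of them are particular to these cells: Lyz2 is also in the macrophage list and Tff3 in the goblet cell list. Of 18 found in the files 17 were tested, none passed on either diet, and 11 were below 0 on the rescue diet and 13 on the normal diet. Of all genes, 39.1% and 41.2% were below 0 in the same order. The list's median was -0.25 on the rescue diet and -0.49 on the normal diet, beside 0.06 and 0.05 over all genes. The C-type lectin Reg3b, which binds bacterial peptidoglycan and is also made by enterocytes, had 246, 1125 and 3117 RPKM (lowest, median, highest) after 1,25D on the rescue diet, against 71.6, 420 and 696 RPKM after vehicle. Reg3b on the normal diet had 67.8, 525 and 3037 RPKM after 1,25D, against 239.96, 4712 and 5917 RPKM after vehicle. Its fitted differences had opposite signs, 1.88 on the rescue diet and -1.70 on the normal diet, and neither passed. Its relative Reg3g was at 1.26 and -2.14 in the same order. Gm14851 (Defa38), which is also 1 of the 12 defensins found through synonyms, was at -0.63 and -0.50. The ratio of Lyz1 to the macrophage lysozyme Lyz2 ranged between 15.7 and 102 over the libraries, and Lyz2 was at 0.13 on the rescue diet and 0.47 on the normal diet, with adjusted p-values of 0.932 and 0.538.

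Of 32 genes of Paneth cell specification and upkeep, 1 rose and none fell on the normal diet, and none passed on the rescue diet. Of all genes tested, 1.84% passed on the normal diet and 0.145% on the rescue diet. Slc30a2, a zinc transporter of Paneth granules, was the gene that rose: it had 13.3, 21.3 and 25.8 RPKM after 1,25D on the normal diet, against 2.67, 4.89 and 5.52 RPKM after vehicle. All 6 of the 1,25D libraries were above all 6 vehicle libraries, and the libraries of 2.22% of all genes were apart on that diet. The log2 fold change was 2.10 (SE 0.31, adjusted p = 0.000259) there. On the rescue diet it had 4.59, 12.0 and 23.9 RPKM after 1,25D, against 1.92, 6.17 and 8.71 RPKM after vehicle, with a log2 fold change of 1.03 (adjusted p = 0.469). Over both diets Slc30a2 passed, at 1.57 (adjusted p = 7.79e-05). No gene of this list passed the test of the difference between diets. The 3 most abundant genes of the list, Ctnnb1 (beta-catenin), Xbp1 (a secretory stress factor) and Fzd5 (a Wnt receptor), were at 0.07, 0.24 and -0.19 over both diets, and none passed.

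Of 15 crypt stem cell genes, 1 fell on the normal diet and none passed on the rescue diet. On the normal diet 1.84% of all genes passed, and the libraries of 2.22% did not overlap. Aqp4, a water channel, fell: it had 4.28, 6.23 and 7.28 RPKM after 1,25D on the normal diet, against 7.45, 14.9 and 21.2 RPKM after vehicle, and the groups did not overlap (log2 fold change -1.06, SE 0.23, adjusted p = 0.0137). Over both diets Aqp4 passed too, at -0.77 (adjusted p = 0.0111), and on the rescue diet it was at -0.48. Olfm4, a stem cell marker, was at -0.52 on the rescue diet and -0.51 on the normal diet, with adjusted p-values of 0.878 and 0.483. Slc12a2 and Cdca7 were at -0.31 and -0.29 on the rescue diet, and at -0.50 and -0.59 on the normal diet, and neither passed. The list's median was -0.18 on the rescue diet and -0.32 on the normal diet. Its mean log2 level had r = 0.60 with that of the 10 genes over 24 libraries, which is a description of libraries that share groups.

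Of the markers of other cells, those of enterocytes had the most genes called on the normal diet. Of 15 enterocyte genes, 5 rose after 1,25D on the normal diet (Fabp2, Alpi, Lct, Treh and Mep1a) and none passed on the rescue diet. On the normal diet 1.84% of all genes passed. Alpi and Mep1a also passed over both diets (adjusted p = 0.0141 and 0.00209). On the rescue diet they were at 0.44 and 0.41, where 12 of the 15 were below 0. In the difference between the diets all 15 were below 0 and none passed. The list had a median log2 fold change of -0.46 on the rescue diet and 1.28 on the normal diet. The summed enterocyte level ranged between 1816 and 9623 RPKM after 1,25D and between 2399 and 11766 RPKM after vehicle on the rescue diet. On the normal diet it ranged between 6834 and 13225 RPKM after 1,25D and between 2566 and 6347 RPKM after vehicle, with no overlap. The mean log2 level of this list had r = -0.53 with that of the 10 genes. With this level as a covariate, the median of the 10 genes for 1,25D was -0.61 on the rescue diet and -0.0 on the normal diet. On the normal diet this fit cannot separate the enterocyte level from the injection.

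Of 14 goblet cell genes, led by Muc13, Fcgbp and Zg16, none passed on either diet, and the list had r = 0.47 with the 10 genes. The general epithelium list, led by Epcam, Lgals4 and Cdh17, had r = 0.08. Cdh17, an intestinal cadherin, rose on the normal diet (log2 fold change 0.94, adjusted p = 0.00758) and over both diets (0.59, adjusted p = 0.0214). Of 12 macrophage genes, led by Ctss, Lyz2 and C1qa, Ctss rose on the normal diet, at 0.58 (adjusted p = 0.0408), and the list had r = 0.25. Of 12 smooth muscle genes none passed, with medians of 0.09 on the rescue diet and -0.42 on the normal diet and r = 0.15. Exocrine pancreas genes had a median of -0.35 on the rescue diet and -3.58 on the normal diet, none passed, and r was -0.02. Of 11 Brunner gland and stomach genes 6 were tested and none passed, with r = -0.32, and granulocyte genes were near 0, with at most 5.14 RPKM summed. Of 7 vitamin D target genes tested, 6 rose on each diet, and the list had r = -0.53 with the 10 genes. Of all genes tested, 1.84% passed on the normal diet and 0.145% on the rescue diet. With the exocrine pancreas, general epithelium or smooth muscle level as a covariate, the median of the 10 genes on the normal diet was -0.74, -0.74 and -0.59, and none of the 10 passed. These covariates come from the same libraries, and the part of any list in the differences of the 10 genes was not tested.

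**Figure D5:**
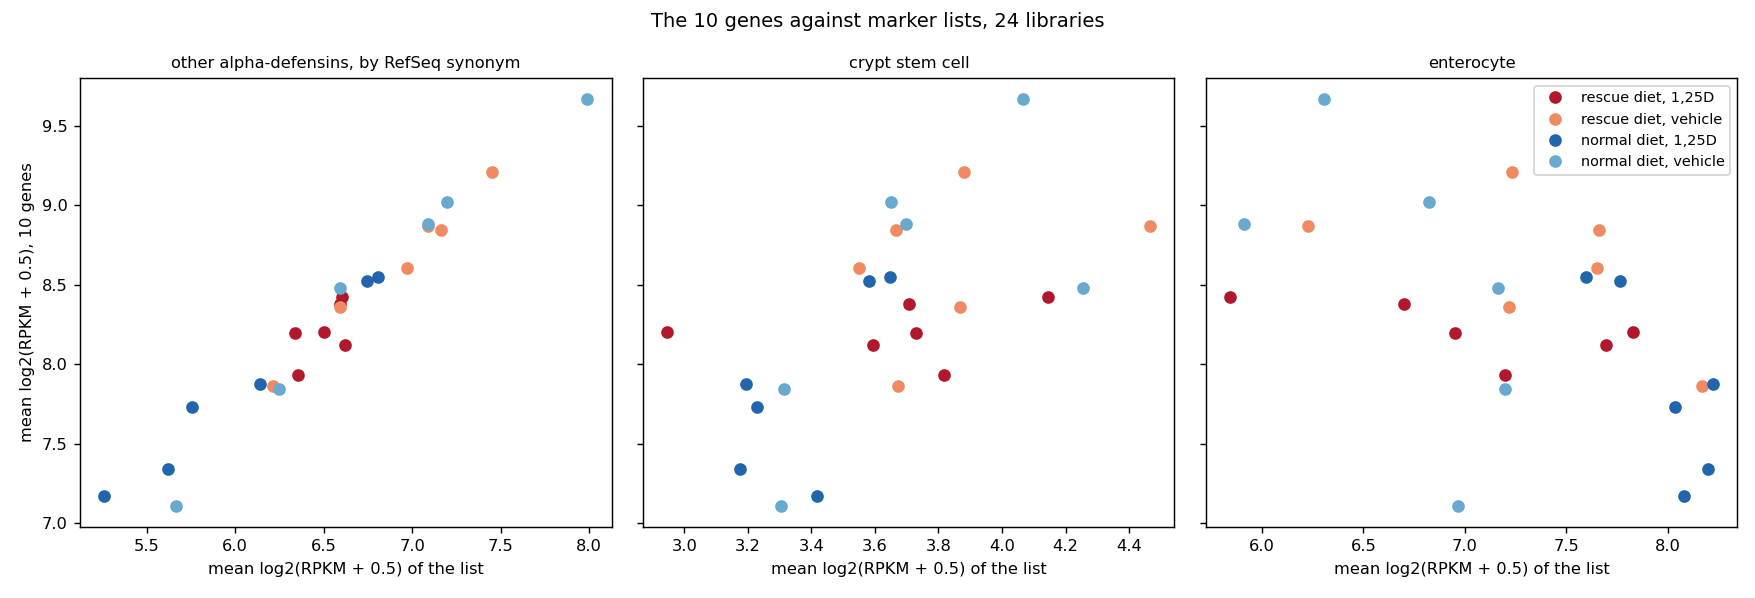
Mean log2(RPKM + 0.5) of the 10 genes in each library against that of 12 further alpha-defensins, 15 crypt stem cell genes and 15 enterocyte genes; colours are groups. The defensin list lies along a line (r = 0.98), the stem cell list rises more loosely (r = 0.60), and the enterocyte list slopes down (r = -0.53).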

How the data were processed

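Duodenal RNA was sequenced in 24 libraries, 6 in each of 4 groups. Per the labels' protocols, the RNA (8 µg) was DNase-treated, cleared of ribosomal RNA with RiboMinus and turned into directional ScriptSeq libraries. The submitters' processing notes name TopHat and mm9. The sources used here give neither their versions nor the counting tool and gene models. RPKM values were deposited, per the file headers, in 30795 rows per library, and rows of 1 symbol were summed (25410 symbols).

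The test was limma 3.58.1 (R 4.3.3) with an intensity trend, applied to log2(RPKM + 0.5) in 1 model of all 24 libraries, for genes reaching 0.5 RPKM in at least 6 libraries. P-values of 20006 genes were adjusted by Benjamini-Hochberg in each of 7 comparisons, and a gene passed at an adjusted p under 0.05. The added 0.5 understates the fold changes of low genes. The model was tested on simulated data. Absolute depth is unknown, and relative depths were between 0.606 and 1.68. No libraries held identical values (r between libraries 0.901 to 0.985).

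All 10 members were named in each comparison, then the 3 most abundant and any passing genes of other lists, and the 10 genes nearest the members' mean standardized level. One of these nearest genes is not reported here. Members and lists were chosen with earlier results of these data known. Alternatives covered the pseudocount, filter, normalization, weights, covariates, a replicate block and leaving out each library.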

Additional observations from a re-analysis of the deposited data

Results flagged for a closer look

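In 40 sets of 6 libraries (10 genes in 4 groups), 2 had a library whose gap to the next, as a part of the range, was above the 95% critical value of Dixon's test, which chance passes in about 1 of 20 sets. Both were in normal-diet vehicle library 1. Defa21 had 232 RPKM there against 77.3 RPKM in the next library, a gap of 0.731 of the range. Defa22 had 192 RPKM against 65.5 RPKM, a gap of 0.724 of the range. The 2 genes are 99.3% identical in coding sequence and can share reads, so they are not separate observations. The cause was not tested.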

How the results depend on the processing

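No member passed in any comparison under the 17 other settings tried for a single diet or injection, or the 16 tried for a pooled comparison or the difference between diets. Leaving out each library in turn gave 0 to 1 members called for 1,25D on the normal diet: Defa5, at -1.3, without vehicle library 6, where its value over these 24 fits ran between -1.3 and -0.65. In the 6 other comparisons leaving out a library called none. All 10 members were below 0 for 1,25D on the rescue diet and over both diets in every setting. On the normal diet the exception was the enterocyte covariate, chosen after the data were seen, which gave 0.19 for Lyz1, 0.0 for Defa17, 0.07 for Defa22, 0.2 for Itln1 and 0.19 for Mmp7. The enterocyte level did not overlap between 1,25D and vehicle on that diet, so this fit cannot separate it from the injection. The same covariate gave 0.25 for Defa20 under vehicle and -0.23 for Lyz1 after 1,25D (rescue against normal diet), -0.0 for Defa22 over both injections and -0.47 for Defa20 in the difference between diets. In the last comparison it put all 10 members below 0 (median -0.62), and after 1,25D 8 of the 10 (median -0.16). After 1,25D the enterocyte level overlapped little between the diets, so the fit can hardly separate that level from the diet.

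Small diet differences over both injections changed sign: Defa20 was at -0.02 with array weights and at -0.05 to 0.3 when a library was left out, Defa21 at -0.01 to 0.33, and Defa22 at -0.04 to 0.3, with -0.01 under median-of-ratios scaling. Mmp7 was at -0.01 under that scaling and with the pancreas covariate, at -0.08 with array weights, at -0.04 without normal-diet vehicle libraries 1 and 6, and at -0.04 to 0.2 when a library was left out. Under vehicle, Defa20 was at -0.58 to 0.13 when a library was left out. For the difference between diets, Itln1 was at 0.05 with the general epithelium covariate, at 0.0 without vehicle libraries 1 and 6, and at -0.36 to 0.04 when 1 library was left out. The cause of these changes was not tested.

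Quantile normalization gave a median of all genes of 0.01 for the diets after 1,25D, against 0.12 as deposited, and 5 of the 10 members were then below 0 for rescue against normal diet under vehicle (median -0.0, against 0.15). Median-of-ratios scaling, array weights and the pancreas and general epithelium covariates also gave 5 below 0 there, with medians of -0.04 to 0.03. Array weights called 1287 genes for the rescue against the normal diet after 1,25D, against 2 with equal weights, and 32 against 1 for the difference between diets. For 1,25D on the normal diet the genes called ranged between 96 (enterocyte covariate) and 620 (adjusted p under 0.10), against 368. On the rescue diet they ranged between 12 (without vehicle library 3) and 90 (array weights), against 29. Over both diets array weights called 470, against 256.

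Replicate numbers did not pair the libraries: correlations of same-numbered libraries ran between -0.44 and 0.48, at most 3 of 6 pairs were over 0.1, and at most 2 of 6 libraries were most like their own number. With the replicate number as a block, 0 members passed in every comparison, and 334, 25 and 236 genes passed for 1,25D on the normal diet, the rescue diet and both, with 0, 1 and 0 for the diets under vehicle, after 1,25D and over both. Absolute depth is unknown, so no counting interval is given.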
